A study of Mus musculus with 24 samples.

Results

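MicroRNAs of the mouse retina were compared between the arrays titled myopia (3) and the arrays titled control (3), which are 6 of the 24 arrays of a series that also covered sclera and whole eye. The rule for the 6 uses tissue and title, and no signal enters it. All came from C57BL/6J mice aged 34 days. A frosted plastic diffuser had covered the right eye for 10 days from postnatal day 24, which blurs vision and drives the eye to elongate (form-deprivation myopia), and the untreated left eye of the same animals served as control. The titles and the phenotype fields name these arms in opposite ways: each array titled control is described as the diffuser eye, and each array titled myopia as the untreated eye. The arms are named here by title, every difference is titled myopia minus titled control, and which arm wore the diffuser is unsettled. The design text gives 9 mice for retina and does not say which animals an array held, so an array may hold a pool, and p-values measure only the spread between these arrays, which may be partly technical. In bulk RNA, fewer cells of a type and less of a miRNA per cell cannot be told apart.

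MicroRNAs are short RNAs cut from a hairpin precursor. Each hairpin gives a 5p and a 3p strand, and usually 1 of them is loaded into Argonaute and pairs with messenger RNAs through its seed (bases 2 to 8), which lowers their translation and stability. The retina is known for a photoreceptor cluster of miR-96, miR-182 and miR-183 that is higher in light than in darkness, for the neuronal miR-124, and for miR-204 and miR-211, which are abundant in retina and pigment epithelium. The cornea and lens are known for miR-184, limbal and other surface epithelia for miR-205 and the miR-200 family, skeletal muscle for miR-1, miR-133 and miR-206, and connective tissue for miR-199.

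RefSeq (build GRCm38.p6) gave 1 mature sequence by exact name for 293 of the 396 miRNAs tested, and on 292 of them every array probe lay inside the sequence. The following are shown because the results turn on them, with the seed in capitals. The photoreceptor cluster and the pair of miR-204 and miR-211, which share 1 seed, check the tissue and were close to level between arms.
miR-183-5p: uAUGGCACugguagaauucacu
miR-96-5p: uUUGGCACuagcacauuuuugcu
miR-182-5p: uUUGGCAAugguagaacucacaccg
miR-204-5p: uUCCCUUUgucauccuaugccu
miR-211-5p: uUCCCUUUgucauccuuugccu
A pair of cornea and lens miRNAs follows, which varied widely within titled control.
miR-184-3p: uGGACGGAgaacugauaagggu
miR-31-5p: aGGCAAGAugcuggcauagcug
The next 4 are among the miRNAs with higher titled myopia means, and no seed is shared between them.
miR-141-5p: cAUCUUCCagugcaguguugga
miR-200a-5p: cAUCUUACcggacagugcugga
miR-214-5p: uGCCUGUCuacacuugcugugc
miR-206-3p: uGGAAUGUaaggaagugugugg

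The signal of a miRNA is the background-subtracted intensity summed over its probes, scaled so that the 75th percentile of the 329 miRNAs detected on all 6 arrays is equal between arrays. Signals under 1.70 were set to that floor before log2. Signals of the 3 arrays of an arm are given in the order of their numbers. Of 696 miRNAs on the array, 278 were detected on no retina array, and 396 were tested because at least 2 of the 3 arrays of an arm detected them. The arrays titled myopia detected 399, 401 and 376 miRNAs and those titled control 372, 362 and 353, a difference in mean of 29.7 (exact permutation test, two-sided, p = 0.1, the smallest that 3 against 3 arrays allow). Counted instead as signals above the floor of the scale, the difference in mean was 10.3 (exact permutation test, two-sided, p = 0.6). The median coefficient of variation between spots of a probe was 5.09% to 5.89%, and no spot was saturated.

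The tissue label matched the photoreceptor and connective tissue markers, while some other markers overlapped between tissues. On a scale common to all 24 arrays, the summed signal of the photoreceptor cluster ran from 126705 to 167667 on the retina arrays, against 2034 to 12124 on sclera and 59139 to 72774 on whole-eye arrays. The connective tissue miR-199a-3p ran from 43.1 to 209.9 in retina, against 14339 to 18268 in sclera. miR-205-5p, of surface epithelium, was detected on 1 of the 6 retina arrays (titled control 3) and on all 6 sclera arrays. The cornea and lens miR-184-3p ran from 110 to 5698 in retina and from 1218 to 9416 in sclera. miR-31-5p ran from 46.5 to 514 in retina, its highest array above all of sclera (162 to 241). The Müller glia list summed to 28291 to 35393 in retina and 28915 to 58707 in sclera.

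The bright retinal miRNAs were nearly level between the arms. miR-124-3p, which holds the neuronal programme of gene expression, gave 153904, 142678 and 149858 in titled myopia and 140586, 167660.0 and 157406 in titled control. miR-96-5p gave 125661, 123752 and 120200.0 in titled myopia and 103477, 135379 and 150919 in titled control. miR-183-5p of the same cluster gave 58291, 57508 and 52577 in titled myopia and 49591, 60574 and 64887 in titled control. Within the cluster titled control 1 was lower than every titled myopia array for miR-96-5p and miR-183-5p, and titled control 2 and 3 were higher than every one, so the arms overlapped. The log2 differences were -0.06 (SE 0.11, 95% interval -0.34 to 0.22), -0.06 (SE 0.16, -0.47 to 0.36) and -0.05 (SE 0.14, -0.40 to 0.30), with limma adjusted p of 0.826, 0.839 and 0.842.

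miR-204-5p gave 16834, 17283 and 20002 in titled myopia and 17682, 22859 and 24207 in titled control, a log2 difference of -0.25 (SE 0.16, limma adjusted p = 0.668). miR-211-5p, with the same seed, gave 19817, 19923 and 23523 in titled myopia and 20509, 25207 and 22133 in titled control, a difference of -0.10 (SE 0.13). Both overlapped between arms. The other of the 10 brightest miRNAs (miR-1937b_v16.0, miR-720, miR-29c-3p, let-7a-5p, let-7f-5p and miR-29a-3p) had log2 differences from -0.10 to -0.07.

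Across the lists of retinal cell types, no member passed the test. The 18 neuronal miRNAs had a median log2 difference of -0.06, with 1 above 0 and 0 past 2-fold; the 4 members tested of the photoreceptor cluster had a median of -0.06 (0 above 0), the 6 Müller glia miRNAs -0.12 (0 above 0) and the activity and stress miRNAs -0.11 (0 of 9 above 0). The same median over all 396 miRNAs was -0.07, with 122 above 0. The 1 neuronal miRNA above 0 was miR-383-5p, at 127, 119 and 86.6 in titled myopia and 81.7, 70.6 and 38.4 in titled control. Its arms did not overlap, and its difference was 0.85 (SE 0.33, limma adjusted p = 0.537). Under the other scalings the median of all miRNAs moved to -0.46 (all miRNAs as the scaling set), -0.23 (quantile) and 0.11 (none), and the neuronal median to -0.46, -0.11 and 0.11, so that these signs changed with the scaling.

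**Figure D1:**
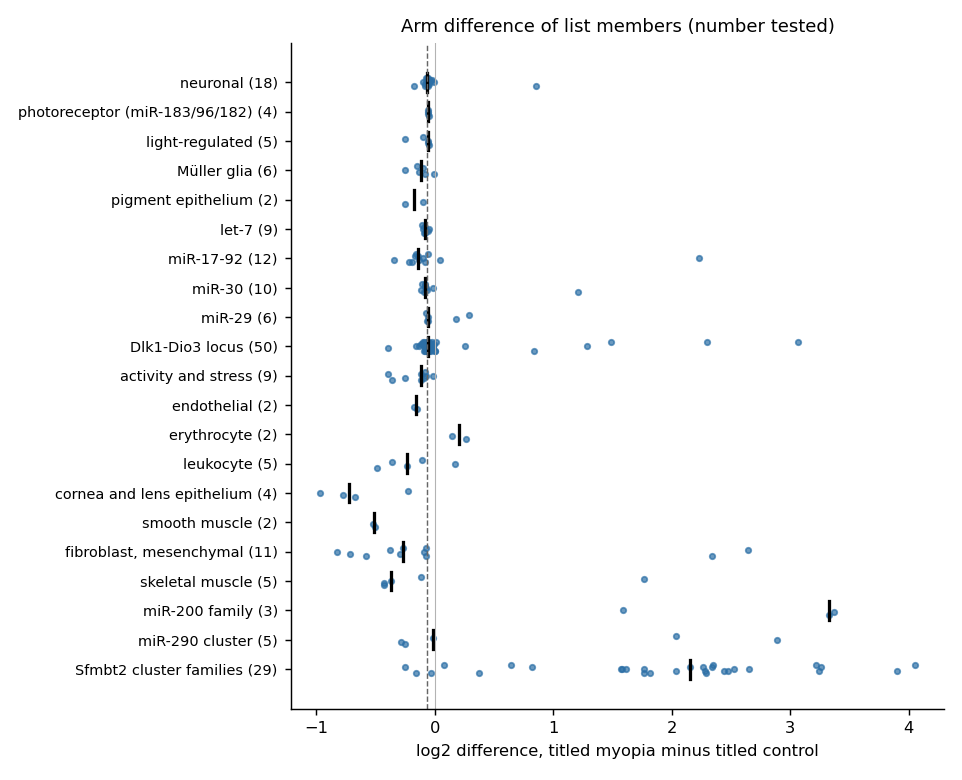
Log2 difference (titled myopia minus titled control) of each tested member of 21 miRNA lists, 1 point a miRNA, with the list's median as a black bar and the median of all 396 miRNAs, -0.07, as a dashed line. The neuronal and photoreceptor members lie near 0, the miR-200 and Sfmbt2 families lie mostly above 1, and the cornea and lens members lie below 0.

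Members of several seed families had nearly equal values. The 9 let-7 miRNAs, which share the seed GAGGUAG and restrain growth in differentiated cells, had differences from -0.11 to -0.05. The 4 miR-181 miRNAs (ACAUUCA) ran from -0.08 to -0.04 and the 3 of miR-29 (AGCACCA) from -0.07 to -0.06. Families were formed only among the 293 tested miRNAs with a sequence, so other tested miRNAs, such as miR-467b-3p at 4.05, entered none. Of the 12 such families with at least 3 members, the lowest median, -0.25, was that of AUUGCAC (miR-25-3p, miR-32-5p, miR-92a-3p and miR-92b-3p). Its members are shown with the seed in capitals.
miR-25-3p: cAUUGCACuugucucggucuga
miR-32-5p: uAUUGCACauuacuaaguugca
miR-92a-3p: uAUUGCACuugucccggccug
miR-92b-3p: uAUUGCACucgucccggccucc
Its lowest member, miR-92b-3p, gave 38.6, 37.0 and 44.9 in titled myopia and 56.6, 45.2 and 59.5 in titled control, not detected on titled control 2. Every titled control array lay above every titled myopia array, with a difference of -0.42 (SE 0.15, limma adjusted p = 0.537). The highest median of these 12 families, -0.05, was that of UAUACAA, the 3p strands of let-7, of which let-7a-1-3p stood apart at 1.19 (SE 0.48).

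No miRNA passed the test between the arms (0 of 396, or 0%). The smallest adjusted p of the limma fit was 0.537, and 20 miRNAs had an unadjusted p below 0.05. limma with array weights called 64 and the fit of all 24 arrays, which takes its spread from the other tissues too, called 51, all higher in titled myopia. Arrays of other tissues at the floor add no spread, so p-values of the 24-array fit do not measure that of the retina arrays alone. In that fit miR-2136 had a difference of 1.54 (limma adjusted p = 0.000328), against 2.90 (limma adjusted p = 0.537) with 6 arrays. Across the 6 arrays the sizes were nonetheless uneven. The titled myopia mean was at least 2-fold higher for 78 miRNAs (19.7%), at least 4-fold for 49 and at least 8-fold for 11, and at least 2-fold lower for 0. On all 3 titled myopia arrays the signal lay above all 3 titled control arrays for 33 miRNAs (8.33%), 25 of them past 2-fold, and below for 8 (2.02%). The 78 were not bright: with all miRNAs ranked by mean level, 38 lay in the lowest 132, 33 in the middle 132 and 7 in the highest 132. Normexp background correction, which adds an offset of 50 to each spot, left 4 past 2-fold in place of 78, and turned the sign of 19 of 31 miRNAs named for their difference between arms. The authors' deposited values gave 57. Of the 78, 15 had a value under the floor and 6 were detected on no titled control array. The titled myopia arrays detected 78, 78 and 69 of them and the titled controls 70, 52 and 35. A miRNA undetected on 2 titled controls is tested through titled myopia alone, and the part of this filter in the counts was not tested. At a floor of 7.21, 74 miRNAs were past 2-fold.

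The 78 were low on titled control 2 and 3 and not on titled control 1. Their median signal was 226, 278 and 149 in titled myopia and 176, 38.8 and 13.9 in titled control. The other 318 miRNAs had medians of 229.5, 241 and 238 in titled myopia and 215, 262 and 253 in titled control. Titled control 1 thus lay with the titled myopia arrays, and titled control 2 and 3 lay far below it. Titled control 1 was above both other titled controls for 75 of the 78 and above the lowest titled myopia array for 51, while titled control 3 was the lowest of all 6 arrays for 73. By slide (each replicate number is also 1 slide), the median difference of the 78 was 0.27 on slide 1, 2.73 on slide 2 and 3.48 on slide 3. Across the 396 miRNAs, titled control 1 correlated with the titled myopia arrays at r = 0.985 to 0.989 and with titled control 2 and 3 at 0.917 and 0.855; these r are across miRNAs, which are not independent replicates. The median SD of log2 signal among the 78 was 0.50 in titled myopia and 1.86 in titled control. Over all 396 miRNAs it was 0.13 and 0.22, with titled control wider for 351. The 78 were picked by their difference between arms, and such a choice favours miRNAs with a wide spread.

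**Figure D2:**
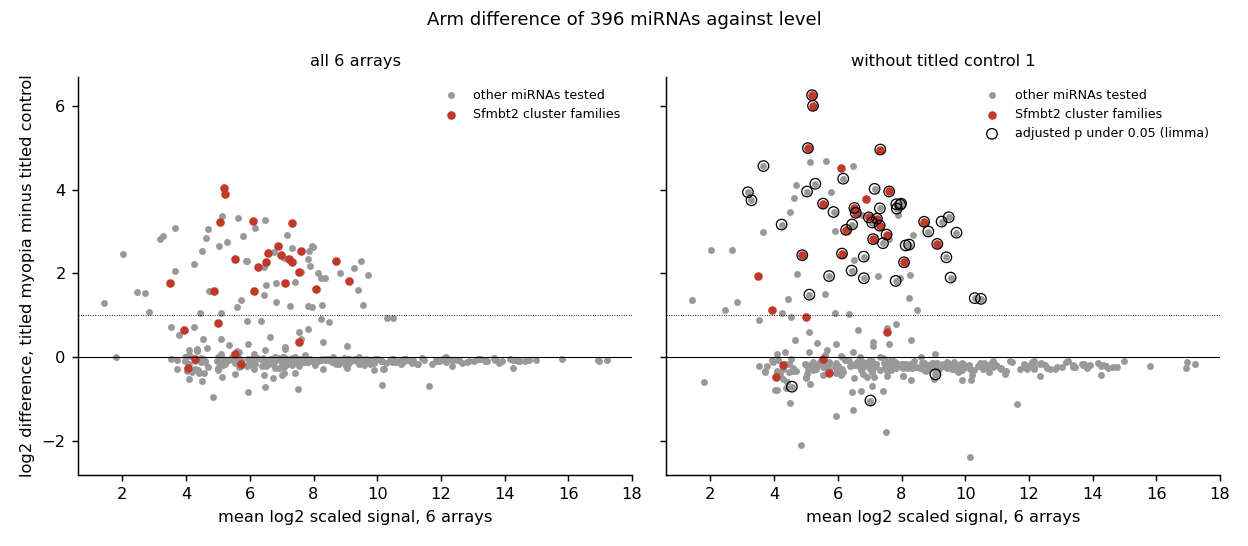
Log2 difference between arms against mean log2 scaled signal for 396 miRNAs, from all 6 arrays (left) and without titled control 1 (right); red points are the Sfmbt2 cluster families, the dotted line is 2-fold, and circles mark an adjusted p under 0.05 (limma). The bright miRNAs lie near 0, and most miRNAs past 2-fold lie at low level (7 of 78 in the highest 132); 0 miRNAs pass with 6 arrays and 55 without titled control 1.

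A control signal, 1 of 16 kinds, was also low on titled control 2 and 3. It was lowest on titled control 2, while the median of the 78 miRNAs was lowest on titled control 3. The bright corner spots, control spots that read none of the 696 miRNAs, gave 486.7, 576 and 373 on the titled myopia arrays and 451, 196 and 248 on the titled controls (exact permutation test, two-sided, p = 0.2, 0.727 adjusted over 16 kinds of control spot). Titled control 1 was again with the titled myopia arrays. None of the 16 kinds had arms that did not overlap, and negative control spots gave 2.72, 3.49 and 2.59 against 3.59, 4.05 and 2.69. The array column on the slide was the same within each arm (3 for titled myopia, 4 for titled control), so that position and arm cannot be told apart. The part of the bright corner signal or of array position in the miRNA differences was not tested.

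Among the 40 smallest p-values the highest differences were of miRNAs at low or moderate level. miR-141-5p, a strand of a miR-200 family hairpin, gave 129.7, 174 and 62.3 in titled myopia and 59.0, 12.6 and below the floor in titled control and was not detected on titled control 2 and 3. Its difference was 3.37 (SE 1.33, 95% interval 0.02 to 6.73, limma adjusted p = 0.537). miR-214-5p gave 647, 703 and 530.4 in titled myopia and 424, 83.3 and 27.9 in titled control, a difference of 2.65 (SE 0.99). miR-16-1-3p gave 667, 727 and 521 in titled myopia and 456, 83.9 and 27.6 in titled control, a difference of 2.63 (SE 1.03). In these 3 miRNAs titled control 1 was the nearest control to the titled myopia arrays, titled control 3 was lowest, and the arms did not overlap.

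miR-1947-5p gave 222, 250.4 and 165 in titled myopia and 138, 21.8 and 5.08 in titled control, a difference of 3.08 (SE 1.20). miR-465b-5p, of an X-linked cluster, gave 445, 469 and 285 in titled myopia and 260.3, 52.5 and 10.3 in titled control, a difference of 2.91 (SE 1.18). miR-704, miR-673-3p and miR-105 followed at 3.10 (SE 1.25), 3.07 (SE 1.17) and 2.84 (SE 1.13), each with titled control 3 at the floor. miR-2136 was detected on titled myopia 1 and 2 and on no titled control array, so its fold is a bound, at least 3.17-fold higher, and miR-871-5p in the same way was at least 2.62-fold higher; the limma adjusted p was 0.537 for both. For the bound, no array without detection counts below the highest floor tried, 7.51. Here and below, such a bound holds only for this signal and scaling. With the authors' values the log2 differences were 0.82 for miR-2136 and 0.83 for miR-871-5p, and with normexp both were -0.36. The sizes of miRNAs with a control array at the floor rest on that floor: at a floor of 7.21 miR-704 was 1.71, miR-673-3p 2.37, miR-105 2.14 and miR-141-5p 2.68. Summed by the scanner software (its total gene signal), miR-704 was 1.32. 72 of the 78 miRNAs past 2-fold had every probe on the same side of 0.

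**Figure D3:**
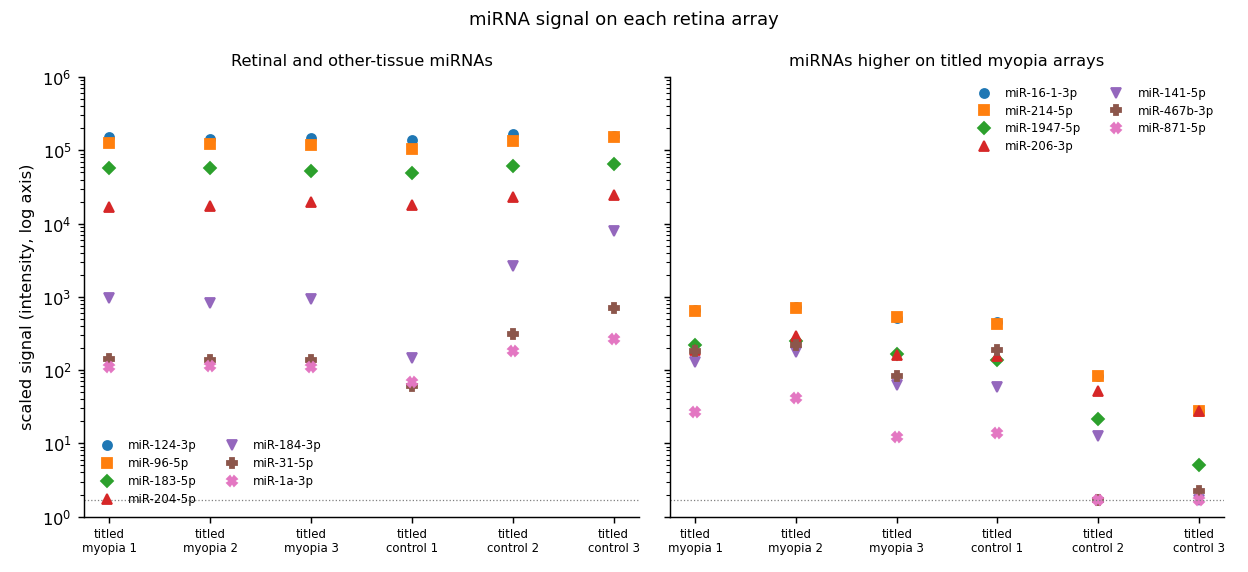
Scaled signal (log axis, intensity) of 14 miRNAs on each of the 6 retina arrays; values under the floor of 1.70 are drawn at it (dotted line). At left, the retinal miRNAs are level while miR-184-3p, miR-31-5p and miR-1a-3p are lowest on titled control 1 and highest on titled control 3; at right, the low-level miRNAs are lowest on titled control 2 or 3.

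In some hairpins only 1 strand was past 2-fold. Of 63 hairpins with both strands tested, 48 had neither strand past 2-fold, 3 had the 5p alone, 7 the 3p alone and 5 both. miR-15a-5p gave 4421, 4709 and 4359.7 in titled myopia and 3748, 5066 and 5498 in titled control (difference -0.07, SE 0.17), and its partner miR-15a-3p gave 597, 662 and 439.9 in titled myopia and 417, 90.2 and 23.5 in titled control (difference 2.54, SE 1.05). For miR-21, linked to growth and injury, the 5p strand differed by -0.09 (SE 0.16) and the 3p strand by 2.30 (SE 0.91). The values of miR-101a were -0.09 for 3p and 2.38 for 5p, of miR-338 -0.07 and 2.0, and of let-7d -0.09 for 5p and 1.71 for 3p. In each of these pairs the strand past 2-fold is the one that, as background, is usually not the guide. These pairs were picked, and the others with 1 strand past 2-fold, such as miR-666 (1.29 for 5p, -0.04 for 3p), were not sorted by guide. The partners miR-141-3p and miR-214-3p were detected on none of the 6 arrays.

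The miR-200 family marks epithelia and restrains the switch to a mesenchymal state. Of 9 members on the array 3 were tested (miR-141-5p, miR-200a-5p and miR-429-3p), and all 3 were past 2-fold, with a median of 3.33 (all miRNAs -0.07). The median was 1.69 without titled control 3 and 4.66 without titled control 1. The 3 miRNAs passed the filter through titled myopia detection, so this count says nothing of the members left out. miR-200a-5p gave 185, 197 and 104 in titled myopia and 95.3, 23.0 and below the floor in titled control (difference 3.33, SE 1.49). miR-429-3p gave 56.9, 65.8 and 25.9 in titled myopia and 28.0, 10.9 and 11.7 in titled control (difference 1.59, SE 0.53). The 3p strands of miR-200a, miR-200c and miR-141 were detected on no retina array and that of miR-200b on titled control 3 alone. With normexp the list median was -0.15, against -0.24 for all miRNAs.

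Among the lists, the one with the most members past 2-fold was that of the miR-297, miR-466, miR-467 and miR-669 families, many of which lie as repeats in an intron of the imprinted gene Sfmbt2. Of 41 on the array 29 were tested, 26 of them above 0 and 22 past 2-fold higher (78 of 396 over all miRNAs, 19.7%), with a median of 2.16 and 4 not overlapping higher (33 of 396 over all miRNAs, 8.33%). The median was 1.22 without titled control 3 and 3.04 without titled control 1. Their summed signal was 7813, 9370.4 and 5360.5 in titled myopia and 7193, 1497 and 761 in titled control. Titled control 1 lay inside the titled myopia range, and titled control 2 and 3 below it. A member undetected on 2 titled controls passes the filter through titled myopia alone, so the counts of 26 and 22 say nothing of the members left out. The files place 24 of the 29 on chromosome 2 alone, with a median of 2.10, and the other 5 had a median of 2.28. Sequences in these families are near-identical, so a probe may read several members.

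miR-467b-3p (probes at chr2:10402926-10402941, mm9) had the highest difference at the floor of 1.70, with titled control 2 below it. At a floor of 7.21 it was 2.79, under miR-466g at 3.22, miR-1947-5p at 2.91 and miR-465b-5p at 2.91. It gave 183, 221 and 82.0 in titled myopia and 191, below the floor and 2.24 in titled control, a difference of 4.05 (SE 1.94, limma adjusted p = 0.537), with titled control 1 above titled myopia 1 and 3. miR-466g (probes at chr2:10436275-10436289) gave 582, 722 and 283 in titled myopia and 637, 22.2 and 10.4 in titled control, a difference of 3.22 (SE 1.61). miR-466h-5p (probes at chr2:10436531-10436549) gave 941, 1082 and 779 in titled myopia and 753, 184 and 49.0 in titled control, a difference of 2.29 (SE 0.99), and its arms did not overlap. The 5p strand of miR-467b was level at -0.16 (SE 0.19), and the lowest of the families was miR-467a-5p at -0.25. With normexp the median of the families was 0.06, and the other alternatives with a value for the families kept it between 1.22 and 3.04.

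Short motifs recurred in the mature sequences past 2-fold. They were looked for after the values were seen, on the mature strand, and a match is a description only. GUGCU was held by 24 of the 293 miRNAs with a sequence (8.19%) and by 15 of the 55 past 2-fold (27.3%), against 9 of the other 238 (3.78%). UGUGU was held by 13 (4.44%), of which 10 were past 2-fold (18.2% of the 55). miR-291a-3p and miR-294-3p hold both. ACACA was held by 9 (3.07%), of which 4 were past 2-fold (7.27% of the 55). These holders of GUGCU past 2-fold carry it (in capitals) near the middle, the end or the start.
miR-15a-3p: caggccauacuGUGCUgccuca
miR-16-1-3p: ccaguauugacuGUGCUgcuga
miR-101a-5p: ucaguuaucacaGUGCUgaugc
miR-200a-5p: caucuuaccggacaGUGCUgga
miR-338-5p: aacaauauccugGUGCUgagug
miR-1947-5p: aggacgagcuagcugaGUGCUg
miR-465b-5p: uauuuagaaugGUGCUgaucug
miR-764-5p: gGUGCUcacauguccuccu
miR-105: ccaaGUGCUcagaugcuuguggu
The holders of GUGCU that were level include members of the miR-17 and let-7 families.
miR-20a-5p: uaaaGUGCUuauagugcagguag
miR-93-5p: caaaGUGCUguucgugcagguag
miR-106b-5p: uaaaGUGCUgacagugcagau
miR-218-5p: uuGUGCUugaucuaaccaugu
let-7i-5p: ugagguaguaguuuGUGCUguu
Holders of UGUGU past 2-fold include repeats of GU, shown with the motif in capitals.
miR-574-5p: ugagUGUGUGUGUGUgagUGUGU
miR-669n: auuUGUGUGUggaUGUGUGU
miR-1187: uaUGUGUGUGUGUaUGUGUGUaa
miR-466j: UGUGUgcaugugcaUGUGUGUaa
miR-206-3p: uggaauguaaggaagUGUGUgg
The level of a miRNA and its motif were not separated here.

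miR-1187 gave 949, 1026 and 805 in titled myopia and 963, 186 and 66.4 in titled control, a difference of 2.01 (SE 0.98). miR-574-5p gave 1282, 1215 and 1056 in titled myopia and 1255, 336 and 141 in titled control, a difference of 1.59 (SE 0.80). In both the titled control 1 signal lay inside the titled myopia range and the other titled controls below it. The level holder miR-20a-5p, of the proliferative miR-17-92 family, gave 499, 504 and 444 in titled myopia and 386, 589 and 769 in titled control, a difference of -0.22 (SE 0.27). Of the 12 tested members of the miR-17-92 list 1 was past 2-fold, miR-18a-3p at 2.23 (undetected on every titled control array, at least 3.28-fold higher), and the list median was -0.14.

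miRNAs of the cornea and lens took the opposite order. The epithelial miR-200 family did not: its list summed to 375, 459 and 195 in titled myopia and 184, 46.8 and 37.9 in titled control. Lens and cornea miR-184-3p (probes at chr9:89697142-89697163, mm9) gave 961, 829.5 and 939 in titled myopia and 145, 2654 and 7892 in titled control, 54.4-fold between the highest and lowest titled control array and 1.16-fold within titled myopia. miR-31-5p gave 140.2, 138 and 139 in titled myopia and 61.3, 307 and 712 in titled control, 11.6-fold within titled control. In both, titled control 1 was the lowest of the 6 arrays and titled control 2 and 3 the highest. The differences were -0.67 (SE 1.49, limma adjusted p = 0.826) and -0.77 (SE 0.90, adjusted p = 0.826), each smaller than its SE. The 4 of 7 cornea and lens members tested were all below 0, with a median of -0.72, and their list summed to 1140.1, 1017 and 1129.6 in titled myopia and 244, 3052 and 8809 in titled control. Without titled control 3 the median was -0.08 and without titled control 1 it was -1.95.

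Muscle and connective tissue miRNAs showed the same order less strongly. miR-1a-3p gave 111, 114 and 111 in titled myopia and 69.5, 185 and 268 in titled control, and miR-133b-3p gave 152, 148 and 151 in titled myopia and 113, 218 and 297 in titled control; both were lowest on titled control 1 and highest on titled control 3, with differences of -0.43 (SE 0.51) and -0.37 (SE 0.36). miR-206-3p, also of skeletal muscle, went the other way: it gave 188, 293 and 163 in titled myopia and 158, 51.3 and 28.1 in titled control, a difference of 1.77 (SE 0.67, limma adjusted p = 0.537), and its arms did not overlap. It holds UGUGU. The 5 muscle miRNAs tested had a median of -0.37, with 1 above 0. miR-199a-3p gave 62.3, 70.1 and 76.1 in titled myopia and 56.9, 89.2 and 291 in titled control, highest on titled control 3. The 11 fibroblast and mesenchymal miRNAs tested had a median of -0.26, with 2 above 0 (miR-214-5p and miR-574-3p). The part of neighbouring tissue in any retina difference was not tested.

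**Figure D4:**
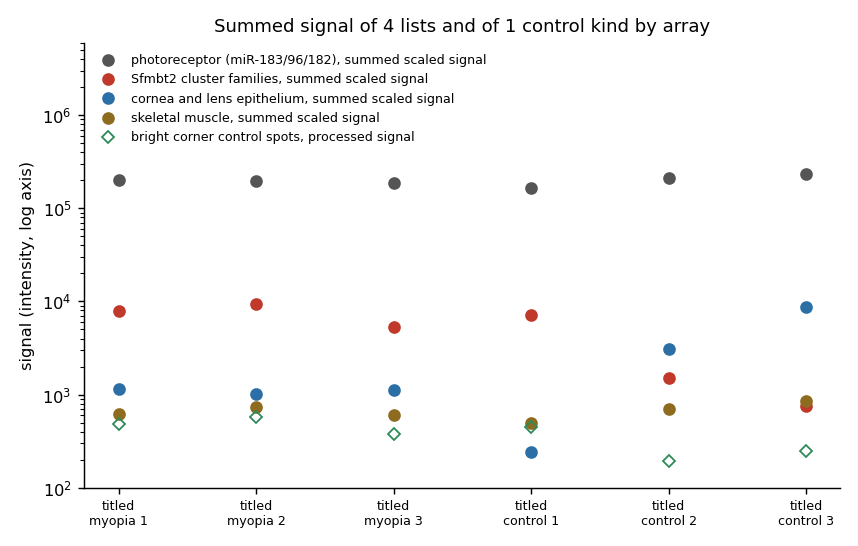
Summed scaled signal of 4 miRNA lists and processed signal of the bright corner control spots on each retina array (log axis, intensity). The photoreceptor cluster is level, the Sfmbt2 families are lowest on titled control 2 and 3 as are the bright corner spots, and the cornea and lens list is lowest on titled control 1 and highest on titled control 3.

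The Dlk1-Dio3 imprinted locus, a large cluster of brain miRNAs, had 50 members tested, with a median of -0.05, 9 above 0 and 4 past 2-fold (miR-673-3p, miR-485-3p, miR-539-5p and miR-666-5p). miR-666-5p was detected on no titled control array, and by the bound it has no fold. miR-485-3p gave 122, 206 and 86.5 in titled myopia and 142, 20.8 and 6.15 in titled control (difference 2.30, SE 1.18), while miR-485-5p differed by -0.12 (SE 0.15). miR-539-5p gave 118, 191 and 135 in titled myopia and 124, 48.0 and 23.2 in titled control (difference 1.48, SE 0.64). The lowest member was miR-134-5p, an activity-regulated inhibitor of dendritic spine growth, at -0.39 (SE 0.39). The miR-290 cluster of embryonic stem cells had 5 of 14 members tested and 2 past 2-fold, miR-291a-3p at 2.89 and miR-294-3p at 2.04, with a median of -0.02. The miR-30 list (10 tested) had a median of -0.08, with miR-30c-1-3p alone past 2-fold at 1.21 (SE 0.92), and the erythrocyte miRNAs miR-451 and miR-144-3p differed by 0.27 and 0.15.

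The 8 miRNAs that were lower on every titled myopia array were miR-125a-3p, miR-139-3p, miR-146a-5p, miR-191-3p, miR-2135_v15.0, miR-505-3p, miR-700-3p and miR-92b-3p, named after their values were seen. miR-146a-5p, an inhibitor of innate immune signalling, gave 13.1, 17.6 and 18.2 in titled myopia and 20.5, 19.2 and 22.4 in titled control, a difference of -0.36 (SE 0.17, limma adjusted p = 0.537). miR-125a-3p gave 48.7, 51.8 and 45.0 in titled myopia and 52.9, 59.4 and 57.2 in titled control, a difference of -0.22 (SE 0.11). The gaps between arms were small, and 0 of the 8 passed the test. miR-145-5p, of smooth muscle, was the 1 miRNA detected on all arrays of 1 arm (titled control) and on none of the other. It gave 12.1, 13.1 and 17.9 in titled myopia and 15.2, 20.8 and 26.6 in titled control, a difference of -0.52 (limma adjusted p = 0.537). The signals of the arms overlapped. All lay above the highest floor tried, 7.51, so that floor sets no bound here.

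The rest of the named miRNAs lay between these. miR-342-5p gave 301, 324 and 239 in titled myopia and 221, 197 and 131 in titled control, a difference of 0.68 (SE 0.24), and miR-324-3p gave 241, 246 and 201 in titled myopia and 184, 159.8 and 115 in titled control, a difference of 0.61 (SE 0.21). For both the arms did not overlap, and the partner strands miR-342-3p and miR-324-5p were level at -0.08 and -0.09. miR-99b-3p, miR-297c-5p and miR-1198-5p had differences of 0.87, 0.82 and 0.43, all with a limma adjusted p of 0.537. miR-122-5p, of liver, was detected on no titled control array, and was at least 1.53-fold higher (adjusted p = 0.537).

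The count of calls depended on titled control 1, and also on the fit: array weights and the fit of all 24 arrays called 64 and 51. Array weights keep that array but can lower its share, so the 64 are not calls independent of it. The weighted difference of miR-467b-3p was 6.13, against 4.05 unweighted and 6.26 without titled control 1. That of miR-704 was 4.47, against 3.10 and 4.57, and that of miR-105 was 2.96, against 2.84 and 3.79. Without titled control 1, 52 miRNAs passed as higher in titled myopia (13.1% of 396) and 3 as lower (0.758%), with a smallest limma adjusted p of 0.0243. The arms then did not overlap for 92 miRNAs higher (23.2%) and 133 lower (33.6%). The median of all miRNAs was -0.18 in that fit. The array is singled out because its values lie with the other arm, and leaving it out for that widens the difference by construction, so these calls describe only what rests on that array. Leaving out titled myopia 3 gave 1 call, and each of the other 4 arrays 0.

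Of the 52, 19 belonged to the Sfmbt2 families. The highest without titled control 1 were miR-467b-3p at 6.26 (SE 0.51, limma adjusted p = 0.0243), miR-467g at 6.01, miR-669h-3p at 5.0, miR-466g at 4.96 and miR-704 at 4.57. miR-1947-5p followed at 4.27 (SE 0.64), miR-764-5p at 4.14, miR-465b-5p at 4.02, and miR-1894-5p and miR-466f-3p at 3.96 each. The 3 lower were miR-1a-3p at -1.04 (SE 0.21, adjusted p = 0.0450), miR-32-5p at -0.71 (SE 0.09, adjusted p = 0.0243) and miR-212-3p at -0.41 (SE 0.08, adjusted p = 0.0376), all from limma. miR-212-3p, induced by neuronal activity through CREB, gave 500.2, 496 and 477 in titled myopia and 497, 658 and 607 in titled control, so that titled control 1 lay inside the titled myopia range here too. The neuronal and photoreceptor lists had 0 calls in this fit and medians of -0.18 and -0.20.

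An interaction contrast in a limma fit of all 24 arrays (426 miRNAs tested) set the retina difference against those of the other tissues. It passed for 7 miRNAs against sclera (1.64%) and for 5 against whole eye (1.17%), all higher in retina. miR-141-5p exceeded both by 2.66, miR-673-3p by 2.35 and 2.32, miR-105 by 2.12, miR-1936 by 1.82 and miR-2136 by 1.54. In sclera these 5 had a difference of 0, with both arms at the floor, and so had all but miR-673-3p in whole eye. Those arrays hold no value to compare, so the contrast restates the retina difference, which did not pass among the 6 retina arrays, and does not show it to be particular to retina. Floored arrays also add no spread, so p-values of the contrast do not measure the spread between the retina arrays alone. miR-150-5p, a leukocyte miRNA, exceeded sclera by 0.97 through a lower value in sclera (-0.74) and not through retina (0.22), and miR-1940 by 1.13 in the same way (-0.92 and 0.21). With normexp or the authors' value table both counts were 0 (limma; 4 and 56 miRNAs against sclera and 0 and 22 against whole eye had an unadjusted p below 0.05). Without titled control 1 they were 82 and 31, and without titled myopia 1 they were 0 and 1. If the phenotype field is right the retina and sclera signs turn together. The turned retina difference was then lower than that of whole eye for 81 of 426 miRNAs and higher for 0 (limma). These calls rest on the same retina values with their sign turned.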

How the data were processed

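Total RNA of retina (mirVana kit, Cy3 label) was hybridised to Agilent mouse miRNA v.15 arrays and scanned intensities were extracted by the authors with Feature Extraction 11, per the submitters' processing notes (11.0.1.1 per the file headers). The deposited intensity is the background-subtracted processed signal per spot. The deposited log2 values of the authors' value table were used only as an alternative; their normalisation is not stated in the labels or headers. Control and outlier-flagged spots were left out, spots were averaged per probe and probes summed per miRNA. Signals were scaled to the 75th percentile of 329 miRNAs, floored at 1.70 (27 of 2376 values), and log2-transformed. A miRNA was tested when detected on 2 of 3 arrays of an arm, with limma 3.58.1 (R 4.3.3), Benjamini-Hochberg adjusted over 396 miRNAs, threshold 0.05. Precision is limited by having 3 arrays an arm. The code was tested on simulated data with the spread of the titled myopia arrays in both arms, which does not cover the wider spread of titled control. The miRNAs named were the 10 highest and 10 lowest differences among the 40 smallest p-values, those detected in 1 arm only, the 10 largest calls each way without titled control 1, the 10 brightest, the extremes of each list, the extreme seed families and partner strands. The lists, and the retina comparison itself, were chosen with earlier results of these data known. Same-numbered arrays share a slide, and the labels tie no number to an animal. The array files' own positions are in mm9. Alternatives covered the signal, background, scaling, floor, filter, block, weights and each array left out.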

Additional observations from a re-analysis of the deposited data

Results flagged for a closer look

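A limma interaction test over all 24 arrays set these miRNAs apart because the arm difference in retina differed from that in another tissue. The retina difference was higher than in sclera by 2.12 for miR-105, 2.66 for miR-141-5p, 0.97 for miR-150-5p, 1.82 for miR-1936, 1.13 for miR-1940, 1.54 for miR-2136 and 2.35 for miR-673-3p. It was higher than in whole eye by 2.12 for miR-105, 2.66 for miR-141-5p, 1.82 for miR-1936, 1.54 for miR-2136 and 2.32 for miR-673-3p. For miR-105, miR-141-5p, miR-1936 and miR-2136 both comparison tissues were at the floor in both arms, and for miR-673-3p sclera was, so these values repeat the retina difference and do not show that it is particular to retina.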

How the results depend on the processing

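Of the settings run on the comparison of arms, limma called 64 miRNAs with array weights, 51 in the fit of all 24 arrays and 0 to 55 with 1 array left out (55 without titled control 1, 1 without titled myopia 3); the other settings gave 0. Without titled control 1, 8 miRNAs were 2-fold lower, and the arms did not overlap for 92 higher and 133 lower. The retina minus sclera count of 7 became 0 with normexp, 0 with the authors' value table, 2 with all miRNAs as the scaling set, 1 with flagged spots included, 16 with the replicate block, and 0 to 82 with 1 retina array left out. The retina minus whole-eye count of 5 became 0 with normexp and 0 with the authors' value table. It became 8 with all miRNAs as the scaling set, 10 with quantile normalisation, and 0 to 31 with 1 array left out. With arms from the phenotype field it became 81, all lower. In the comparison of arms, the replicate block gave 0 calls (51 at an unadjusted p below 0.05, smallest limma adjusted p = 0.361). The numbers were not taken to pair arrays because the labels tie none to an animal. Deviations of same-numbered arrays correlated at 0.36, -0.22 and 0.64, and titled myopia 2 was closest to titled control 1. With 3 arrays an arm, centred within the arm, these values cannot settle whether arrays are paired.

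With normexp the difference changed sign for let-7a-1-3p (-0.37), miR-105 (-0.34), miR-1198-5p (-0.060), miR-122-5p (-0.55), miR-141-5p (-0.15), miR-1894-5p (-0.12), miR-2136 (-0.36), miR-297c-5p (-0.36), miR-342-5p (-0.094), miR-383-5p (-0.15), miR-467b-3p (-0.15), miR-467g (-0.18), miR-539-5p (-0.24), miR-669h-3p (-0.056), miR-673-3p (-0.29), miR-704 (-0.44), miR-764-5p (-0.26), miR-871-5p (-0.36) and miR-99b-3p (-0.38), while the median of all miRNAs moved to -0.24. Normexp adds an offset of 50 to each spot by construction, which compresses differences between low signals. Why these signs turned was not tested. Other values for the named miRNAs kept their direction (553 with the same call, 53 passing where the comparison of 6 arrays did not), and recomputed list medians stayed within the spread between arrays 380 times and moved beyond it 60 times. Sizes were less stable than directions: of 31 named miRNAs the difference moved by over 1.5 times for 9 at the floor of 7.21 and 9 at that of 7.51, 14 with the scanner's total gene signal, 16 with the authors' value table, 24 with normexp, 18 without titled control 1 and 17 without titled control 3. The difference in the number detected was 10.3 when signals above the floor were counted. The miR-200 list has no value when detection on all 6 arrays is required.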
